A study of Danio rerio with 42 samples.

Results

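The genes described here are 43 cell cycle and DNA replication genes of the zebrafish, chosen as a list of gene symbols for their part in copying the genome and dividing the cell. Of the 43 symbols, 42 were found among the 25935 genes of the larval count table (dut was not among them), and all 42 passed the filter on low counts. In the liver tables all 43 were found as 44 of 25680 Ensembl genes, because rrm2 is the name of both ENSDARG00000020711 and ENSDARG00000078069. Reads from these copies may have been split between them, so the values of rrm2 in livers are uncertain. After the filter, 31 of the 44 were tested in the fit of all 30 livers.

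The study asked whether embryonic alcohol exposure (EAE) changes the response to a rich diet later in life. Sibling embryos of the AB strain, a common laboratory zebrafish, were kept in ethanol (EtOH) between 12 hours (hpf) and 5 days (dpf) after fertilization, or without EtOH as controls. RNA-Seq was done on pools of 15 whole larvae at 13 dpf and on single adult livers. Every fish received either a high-fat, high-cholesterol (HFHC) diet or a normal diet (ND). For larvae the HFHC diet was artemia with added whole egg powder and the ND was artemia alone. For adults the HFHC diet was a larger ration of a dry feed with added egg powder and the ND was a smaller ration of that feed, so the adult diets differed in amount as well as in kind.

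The 12 larval samples form 4 groups of 3, which are EAE larvae on HFHC diet, EAE larvae on ND, control larvae on HFHC diet and control larvae on ND. EAE larvae had been in 1% EtOH, control larvae in 0%, and the diet began at 6 dpf. The 30 livers form 6 groups of 5, with 0%, 0.5% or 1% EtOH and HFHC diet or ND, the diet beginning at 65 dpf and lasting 8 weeks. All 10 groups share the AB background. A larval sample is the RNA of whole bodies and a liver library holds whatever tissue was dissected with the liver, so fewer dividing cells and less RNA per dividing cell cannot be told apart.

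A cell that prepares to divide loads the MCM2-7 ring onto each origin of replication, a step called licensing that needs the origin recognition complex, cdc6 and cdt1. In S phase the ring is activated by cdc45, GINS and mcm10, and the DNA is then copied by polymerases held on the template by the sliding clamp PCNA. Cyclin B with cdk1 drives the cell into mitosis, where kinases such as plk1 and aurkb and the spindle checkpoint protein bub1 oversee chromosome segregation. Many of these genes are transcribed chiefly in cycling cells, and in an adult liver most hepatocytes are at rest.

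The larval libraries held 18582927 to 39115243 counts and the liver libraries 8131371 to 12963071. The gene-wise spread between samples of a group, as edgeR's common coefficient of variation, was 7.35% in larvae and 43.3% in livers. Values are CPM, the read count of a gene relative to the total of its library on the usual scale, with totals scaled by TMM over the 12 larval samples or over the 30 livers, unless TPM, the length-corrected level the authors deposited for larvae, is named. The neural and blood markers in the larvae, and the intestinal, pancreatic and testis markers in some livers, differed between samples and are given beside the results they move with.

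In whole larvae at 13 dpf every one of the 42 genes was measured in every sample, the lowest single count being 42 reads of ccnb2, a B-type cyclin. On the length-corrected TPM scale, pcna was the most abundant at 483 ± 44.6 TPM (SD over 12 samples). The licensing helicase followed, with mcm7 at 133 ± 9.42 TPM, mcm5 at 117 ± 10.3 TPM, mcm4 at 105 ± 7.22 TPM and mcm6 at 96.9 ± 8.30 TPM, neighbours whose ranges over the samples overlapped. Next came mcm3 at 84.2 TPM, then rrm1, the large subunit of the ribonucleotide reductase that makes deoxynucleotides, at 72.9 TPM and mcm2 at 72.3 TPM.

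The middle of the order held tyms, the thymidylate synthase, at 53.8 TPM, the maintenance DNA methyltransferase dnmt1 at 51.1 TPM, the DNA ligase lig1 at 49.5 TPM and uhrf1, which brings dnmt1 to newly copied DNA, at 40.3 TPM. The mitotic kinase gene cdk1 stood at 36.8 TPM and mki67, the antigen used to stain cycling cells, at 31.2 TPM. The lowest were ccnb2 at 3.54 TPM, mcm10 at 6.00 TPM, and the origin recognition subunits orc6 at 6.15 TPM and orc1 at 6.77 TPM. In larvae the genes of S phase and licensing covered a range from pcna to mcm10, and every mitotic gene lay below the 6 subunits of the MCM ring.

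Replication genes were lower in larvae on HFHC diet, with and without EAE. The summed CPM of the 42 genes was 2418, 2399.7 and 2374 in EAE larvae on HFHC diet, against 2714, 2646 and 2648 in EAE larvae on ND. In control larvae the sums were 2164, 2365 and 2382 on HFHC diet, against 2663, 2459.8 and 2614 on ND. All 6 sums on HFHC diet were below all 6 on ND. Control HFHC replicate 1 was the lowest of the 12.

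In control larvae, 39 of the 42 genes had a negative log2 fold change of HFHC over ND, and 8 fell past an adjusted p of 0.05 in the quasi-likelihood test of edgeR, adjusted by Benjamini-Hochberg over 19657 genes. Among all genes tested 17.5% were called in either direction and 7.77% were called lower, beside 8 of 42 here. The median log2 fold change was -0.15 for the members and 0.01 for all genes. Without control HFHC replicate 1 the members' median was -0.09, with 36 of 42 negative. The samples of the 2 diets did not overlap for 17 of the 42 (40.5%), each time with HFHC lower, beside 17.7% of all genes.

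In EAE larvae, which share no sample with the control larvae, 37 of 42 had a negative log2 fold change of HFHC over ND and 6 fell past the same threshold. Of all genes, 12.4% were called in either direction and 4.18% lower. The median was again -0.15 for the members. For 24 of 42 genes (57.1%) all HFHC samples lay below all ND samples, beside 14.7% of all genes.

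**Figure D1:**
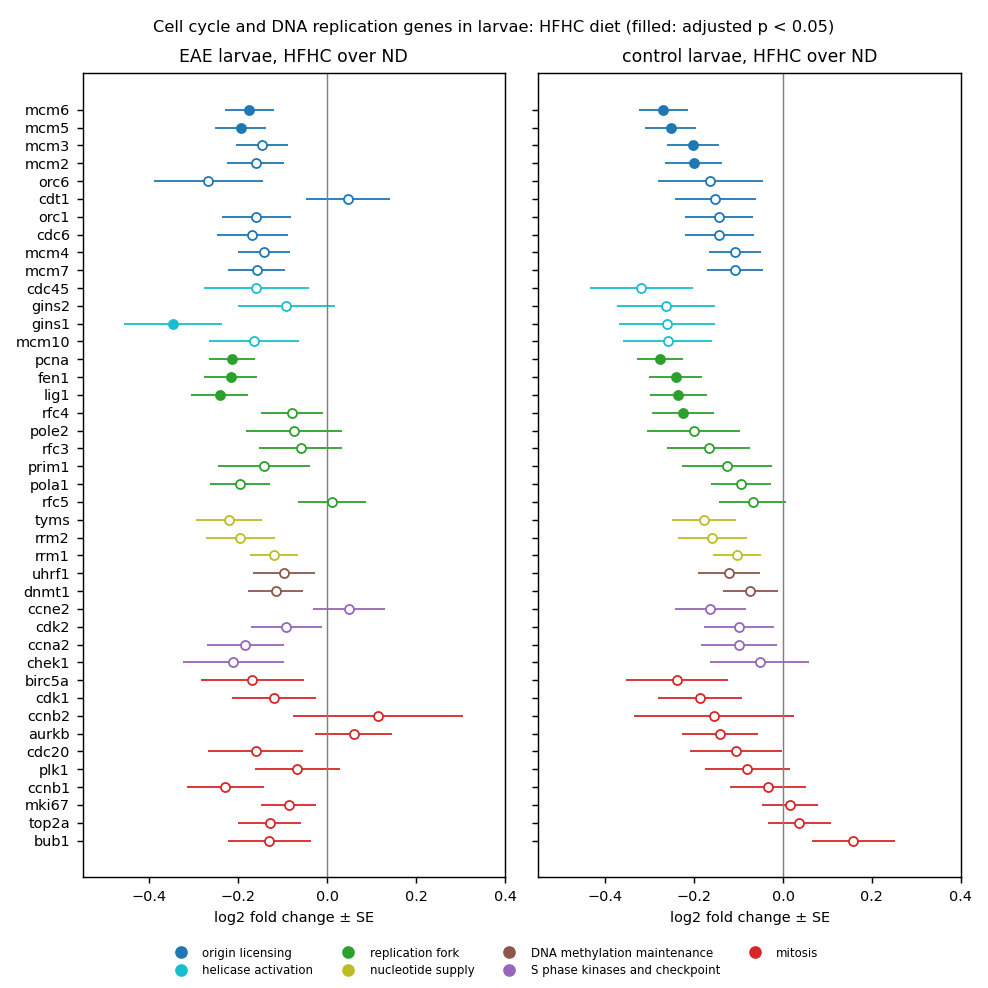
Log2 fold change of HFHC over ND for the 42 genes in EAE larvae (left) and control larvae (right), with standard errors, coloured by role and filled where the adjusted p was under 0.05. Most points lie left of 0, the 14 filled ones belong to licensing, helicase activation and the replication fork, and the mitotic genes at the bottom are all open.

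The replication fork genes held the most calls. pcna, on chromosome 10 (chr10:40900618-40905471, GRCz10), had 334, 327 and 332 CPM in EAE larvae on HFHC diet, against 398, 378 and 376 CPM on ND. In control larvae it had 294, 308 and 314 CPM on HFHC diet, against 377, 363 and 369 CPM on ND. The clamp gene was thus lower in every HFHC sample than in any ND sample. Its log2 fold change was -0.21 ± 0.05 (SE) in EAE larvae, with an adjusted p of 0.00974 in edgeR's test, and -0.28 ± 0.05 in controls, with an adjusted p of 0.00127.

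fen1, the nuclease that trims the flap at the start of each Okazaki fragment (chr24:11768375-11779147), had 46.6, 45.9 and 44.8 CPM in EAE larvae on HFHC diet, against 53.7, 52.7 and 53.1 CPM on ND. In controls it had 42.1, 46.7 and 48.4 CPM on HFHC diet, against 55.2, 55.0 and 52.2 CPM on ND. No HFHC sample reached an ND sample. The log2 fold changes were -0.22 ± 0.06 (edgeR adjusted p = 0.0229) and -0.24 ± 0.06 (edgeR adjusted p = 0.00998).

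lig1, which seals the fragments that fen1 has trimmed (chr2:44448278-44491323), had 79.1, 82.8 and 81.5 CPM in EAE larvae on HFHC diet, against 105, 93.7 and 88.9 CPM on ND. Control larvae had 74.1, 82.1 and 81.9 CPM on HFHC diet, against 94.6, 90.8 and 94.7 CPM on ND. Here too the diets did not overlap. The log2 fold change was -0.24 ± 0.06 in EAE larvae (edgeR adjusted p = 0.0182) and -0.24 ± 0.06 in controls (edgeR adjusted p = 0.0172). The clamp loader subunit rfc4 passed in control larvae only, with a log2 fold change of -0.08 ± 0.07 in EAE larvae and -0.22 ± 0.07 in controls, the difference between the comparisons being 0.15 ± 0.10 (edgeR adjusted p = 0.557).

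All 10 licensing genes had a negative log2 fold change in controls, with 4 called, and 9 of 10 in EAE larvae, with 2 called. mcm5 (chr3:25868606-25880569) had 142, 149 and 138 CPM in EAE larvae on HFHC diet, against 159, 168 and 164 CPM on ND. Its control values were 128, 144 and 140.2 CPM on HFHC diet, against 163, 163 and 164 CPM on ND. The HFHC samples were below the ND samples throughout. The log2 fold change was -0.19 ± 0.06 in EAE larvae (edgeR adjusted p = 0.0308) and -0.25 ± 0.06 in controls (edgeR adjusted p = 0.00569).

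mcm6, another subunit of the ring (chr6:12733207-12755502), had 156, 145 and 144 CPM in EAE larvae on HFHC diet, against 172, 168 and 163 CPM on ND. In controls it had 132, 139.6 and 143 CPM on HFHC diet, against 171, 162 and 166 CPM on ND. The diets were again apart. The log2 fold change was -0.18 ± 0.06 in EAE larvae (edgeR adjusted p = 0.0438) and -0.27 ± 0.06 in controls (edgeR adjusted p = 0.00289), the EAE call being kept in 4 of 8 other settings and 1 of 6 fits without 1 sample. mcm3 had a log2 fold change of -0.15 ± 0.06 in EAE larvae and -0.20 ± 0.06 in controls, and mcm2 had -0.16 ± 0.06 in EAE larvae and -0.20 ± 0.06 in controls, the control values being the called ones. The differences between the comparisons were 0.06 ± 0.08 for mcm3 and 0.04 ± 0.09 for mcm2, neither called.

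The helicase activators are transcripts of low count. All 4 had negative log2 fold changes in both comparisons, and gins1, a subunit of the GINS complex, was called in EAE larvae at -0.35 ± 0.11 (edgeR adjusted p = 0.0442). That call was kept in 4 of 8 other settings, not in DESeq2, and in 2 of 6 fits without 1 sample. gins1 had 7.29, 8.19 and 6.97 CPM in EAE larvae on HFHC diet, against 11.0, 8.54 and 9.16 CPM on ND. In control larvae its log2 fold change was -0.26 ± 0.11 (edgeR adjusted p = 0.101). The nucleotide genes rrm1, rrm2 and tyms, and dnmt1 and uhrf1, all had negative values in both comparisons. edgeR and DESeq2 called 0 of these 5 in either, tyms coming nearest at -0.22 ± 0.07 in EAE larvae (edgeR adjusted p = 0.0566). The unadjusted p was under 0.05 for the 3 nucleotide genes in EAE larvae, beside 26.6% of all genes. In controls it was under 0.05 for 1 of them, beside 32.2% of all genes. Over both exposures, fen1, gins1, lig1, mcm3, mcm5, mcm6, pcna, rrm2 and tyms had all 6 HFHC samples below all 6 ND samples, which is 9 of 42 (21.4%), beside 4.51% of all genes.

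The genes of mitosis gave 0 calls of 10 in either diet comparison, in edgeR and in DESeq2. In EAE larvae 8 of 10 were negative, with 1 unadjusted p under 0.05 beside 26.6% of all genes. In controls 7 of 10 were negative, with 0 beside 32.2% of all genes. mki67 (chr12:10328774-10343439) had 127, 127 and 123 CPM in EAE larvae on HFHC diet, against 136, 133 and 132 CPM on ND. The controls had 118, 128 and 131 CPM on HFHC diet, against 127, 113 and 133 CPM on ND. The EAE diets were apart by a small margin and the control diets overlapped. Its log2 fold change was -0.09 ± 0.06 in EAE larvae (edgeR adjusted p = 0.407) and 0.02 ± 0.06 in controls (edgeR adjusted p = 0.893).

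top2a, the topoisomerase that untangles sister chromatids, had 73.2, 73.6 and 71.9 CPM in EAE larvae on HFHC diet, against 84.8, 76.0 and 78.4 CPM on ND. Among controls it had 68.6, 75.8 and 74.3 CPM on HFHC diet, against 77.6, 62.7 and 72.4 CPM on ND. The log2 fold changes were -0.13 ± 0.07 (edgeR adjusted p = 0.256) and 0.04 ± 0.07 (edgeR adjusted p = 0.761). Control ND replicate 2 was the lowest of all samples for both mki67 and top2a.

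cdk1 had 23.2, 24.0 and 26.2 CPM in EAE larvae on HFHC diet, against 30.2, 25.7 and 23.8 CPM on ND. The control larvae had 20.03, 24.1 and 24.7 CPM on HFHC diet, against 27.3, 24.3 and 26.5 CPM on ND. The diets overlapped in both. Its log2 fold change was -0.12 ± 0.09 in EAE larvae (edgeR adjusted p = 0.453) and -0.19 ± 0.09 in controls (edgeR adjusted p = 0.176). The 95% interval of the control log2 fold change ran from -0.12 to 0.15 for mki67, from -0.11 to 0.18 for top2a and from -0.38 to 0.01 for cdk1. The value of pcna there, -0.28, lay outside those of mki67 and top2a and inside that of cdk1. In EAE larvae the intervals were -0.22 to 0.04 for mki67, -0.28 to 0.02 for top2a and -0.32 to 0.08 for cdk1, and the value of pcna, -0.21, lay inside all 3. The mitotic genes were not tested against the replication genes.

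**Figure D2:**
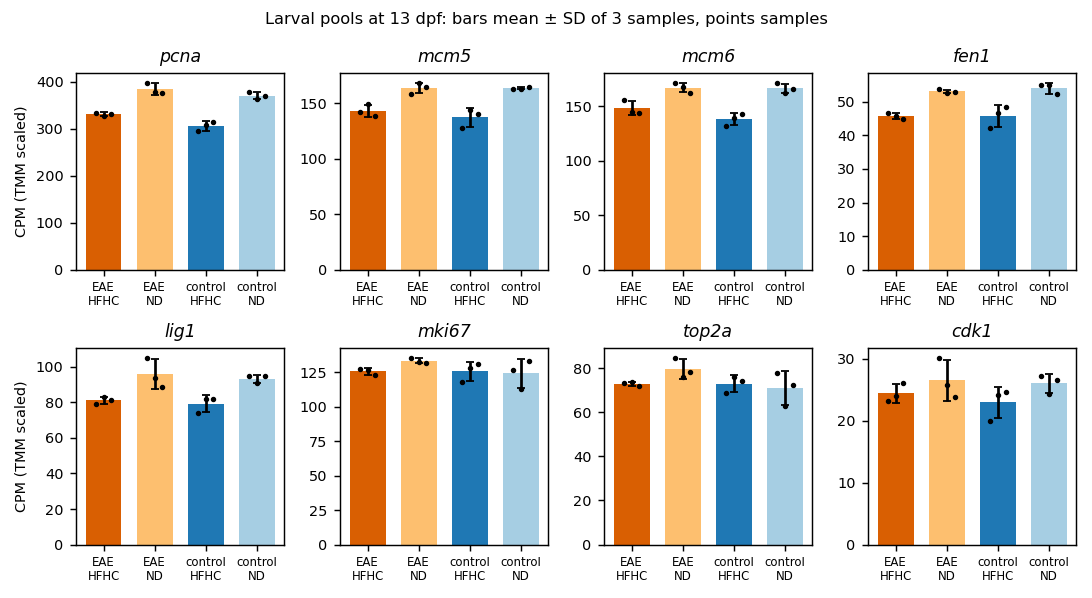
CPM of 8 genes in the larval samples, with bars for the mean and SD of 3 samples and points for the samples. For pcna the HFHC points lie at 294 to 334 CPM and the ND points at 363 to 398 CPM, while the points of mki67, top2a and cdk1 overlap between the diets in control larvae.

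The number of members called in the diet comparisons depended on single pools. In control larvae the 8 calls became 3 without control HFHC replicate 1, 4 without control ND replicate 3 and 5 without control ND replicate 1, and 4 when TPM values were tested with limma. In EAE larvae the 6 calls became 1 without EAE HFHC replicate 3, 2 without EAE ND replicate 1 or replicate 3, 3 without EAE HFHC replicate 1, and 3 with limma on TPM. pcna passed in both comparisons under every one of these settings, and mcm5 and mcm6 in control larvae. Calls over all genes changed too, from 3432 to 1883 without control HFHC replicate 1 and to 3470 without control HFHC replicate 2. In EAE larvae they went from 2429 to 1692 without EAE HFHC replicate 3. Without 1 sample, 37 to 39 of 42 members stayed negative in EAE larvae, with medians of -0.12 to -0.17. In controls 36 to 41 stayed negative, with medians of -0.09 to -0.20.

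Wider lists of the same pathways differed. Of all genes, 4.18% were called lower in EAE larvae and 7.77% in controls. The share called lower was above this for the other replication genes and near or below it for the other mitosis genes. Of 42 other replication genes, 34 had negative values in EAE larvae with 6 called lower, and 40 in controls with 12 called lower. Those with the smallest p were pold1, the catalytic subunit of polymerase delta, at -0.20 ± 0.06 and esco2, a cohesin acetyltransferase, at -0.28 ± 0.08 in EAE larvae. In controls they were orc3, an origin recognition subunit, at -0.35 ± 0.07 and slbp, which binds histone mRNA, at -0.34 ± 0.07. Of 64 other mitosis genes 3 were called lower in EAE larvae, led by the spindle checkpoint gene bub3 at -0.28 ± 0.07 and the kinetochore gene ndc80 at -0.27 ± 0.07. In controls 3 were called lower and 1 higher, led by zw10 at -0.32 ± 0.07 and, higher, the microtubule regulator ckap5 at 0.22 ± 0.07.

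Regulators upstream of the module and its brakes were less uniform. Of all genes, 8.18% were called higher and 4.18% lower in EAE larvae, and 9.69% higher and 7.77% lower in controls. Of 27 cell cycle regulators edgeR called 0 in EAE larvae, with 2 unadjusted p values under 0.05 beside 26.6% of all genes and 1 call in DESeq2, while in controls 5 fell and 1 rose. The growth-promoting transcription factor gene mycb fell by 0.50 on the log2 scale and e2f3, an activator of S phase genes, fell by 0.46, both in controls. The 1 that rose was e2f8, a repressor of the same family, at 0.42 ± 0.08, named after its value was seen. Of 22 brakes and stress response genes, 5 rose and 2 fell in each comparison, among them the antiproliferative gene btg1 at 0.32 ± 0.06 in EAE larvae and 0.43 ± 0.06 in controls, mdm2, a ubiquitin ligase gene, at 0.52 ± 0.08 in EAE larvae, and the stress gene gadd45aa at 0.63 ± 0.08 in controls.

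Markers of several cell types moved with the diet, not all of them in both exposures. The summed CPM of the leukocyte list was 424 to 436 in EAE larvae on HFHC diet and 243 to 286 in EAE larvae on ND, with 13 of 13 genes positive and 12 called. In controls it was 394 to 468 on HFHC diet and 305 to 332 on ND, with 13 of 13 positive and 6 called. The neural progenitor list, whose cells divide, was 550.2 to 598 CPM in EAE larvae on HFHC diet and 694 to 789.5 CPM on ND, with 17 of 17 negative and 11 called. In controls it was 563.98 to 602 CPM on HFHC diet and 562 to 646 CPM on ND, with 11 of 17 negative and 2 called, both higher. The erythroid list was 1045 to 1195 CPM in EAE larvae on HFHC diet and 624 to 872 CPM on ND, with 7 of 10 called higher. In controls the erythroid sums overlapped, at 932 to 1138 CPM on HFHC diet and 986 to 1185 CPM on ND, with 6 of 10 genes positive, 0 called by edgeR, 1 unadjusted p under 0.05 and 1 call in DESeq2. The part of these cells in the replication result was not tested.

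EAE itself gave no call among the 42 genes on either diet. On ND, edgeR called 0 of 42 in EAE larvae against control larvae and 3 had an unadjusted p under 0.05, beside 15.4% of all genes, while DESeq2 also called 0. Of all genes 1.66% were called by the adjusted p. The 3 were genes of mitosis, bub1 at 0.27 ± 0.09 (edgeR adjusted p = 0.148), the cyclin gene ccnb1 at 0.20 ± 0.09 (edgeR adjusted p = 0.245) and top2a at 0.17 ± 0.07 (edgeR adjusted p = 0.253). bub1 and ccnb1 were singled out after their values were seen. The other reference genes were at 0.10 ± 0.06 for mki67, 0.05 ± 0.05 for pcna, 0.03 ± 0.09 for cdk1 and 0.00 ± 0.06 for mcm5. The EAE samples lay wholly above the controls for 2 of 42 and wholly below for 2 of 42, beside 10.9% and 9.17% of all genes. In the same comparison the neural progenitor list was positive for 17 of 17 genes with 3 called. DESeq2 called 5 of these 17 and 5 of 10 neuron genes higher, and 4 of 10 erythroid genes lower, beside 510 of all 19657 genes. The erythroid sums were 624 to 872 CPM in EAE larvae and 986 to 1185 CPM in control larvae. The part of these cells was not tested.

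On HFHC diet edgeR again called 0 of 42 in EAE larvae against control larvae, beside 0.178% of all genes, and DESeq2 called 0. An unadjusted p under 0.05 was reached by 4 of 42, beside 8.02% of all genes, all positive, namely gins2, aurkb, ccne2 and pcna, the last at 0.12 ± 0.05 (edgeR adjusted p = 0.562). The other reference genes were at 0.09 ± 0.10 for cdk1, 0.06 ± 0.06 for mcm5, 0.00 ± 0.07 for top2a and -0.00 ± 0.06 for mki67. For 9 of 42 genes (21.4%) all EAE samples were above all controls, beside 7.5% of all genes. The low control HFHC replicate 1 enters this comparison and the control diet comparison alike.

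The test of whether the diet effect differed between EAE and control larvae called 0 of 42 genes in edgeR, beside 0.275% of all genes, with 1 unadjusted p under 0.05, for bub1 at -0.29 ± 0.13, beside 13.5% of all genes, and DESeq2 called 0. The median of this difference over the members was 0.01. For pcna the difference was 0.06 ± 0.07 with a 95% interval of -0.09 to 0.22.

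In adult livers most of the same genes had few counts, 31 of the 44 having a median under 10 counts over the 30 livers, while rfc3, pcna, lig1, mcm7, rfc5 and rrm1 had at least 11 counts in every liver. pcna ranged over the 30 livers between 2.79 and 39.5 CPM with a median of 4.97 CPM, and mki67 between 0 and 13.2 CPM with a median of 0.827 CPM. Larvae had 294 to 398 CPM of pcna and 113 to 136 CPM of mki67, which are other tables, counting and gene models and were not tested against livers. dut had at most 2 counts in any liver, but its gene model is very short (chr18:5616256-5616356), so this need not mean a low level. Of the list, 13 Ensembl genes did not pass the filter. A count of 0 allows up to 3 counts, which is 0.206 to 0.508 CPM depending on the library.

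Before any comparison, 5 of the 30 livers stood apart. The summed CPM of the 44 genes was 83.3, 71.0, 67.7, 60.2 and 59.0 in 0% EtOH HFHC livers, against 60.3, 180.1, 165, 65.3 and 55.1 in 0% EtOH ND livers. It was 61.2, 264, 60.4, 51.6 and 65.6 in 0.5% EtOH HFHC livers, against 56.7, 63.0, 67.1, 52.5 and 46.0 in 0.5% EtOH ND livers. It was 59.9, 50.02, 69.9, 181 and 52.9 in 1% EtOH HFHC livers, against 254, 67.1, 74.8, 63.1 and 72.5 in 1% EtOH ND livers. The 5 high livers lay between 165 and 264 CPM and came from 4 of the 6 groups and all 3 EtOH levels, while the other 25 lay between 46.0 and 83.3 CPM. These 5 were picked by this sum, so they are described liver by liver. The marks of Dixon's test given for some of them at the end use the same sum and are no separate support.

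**Figure D3:**
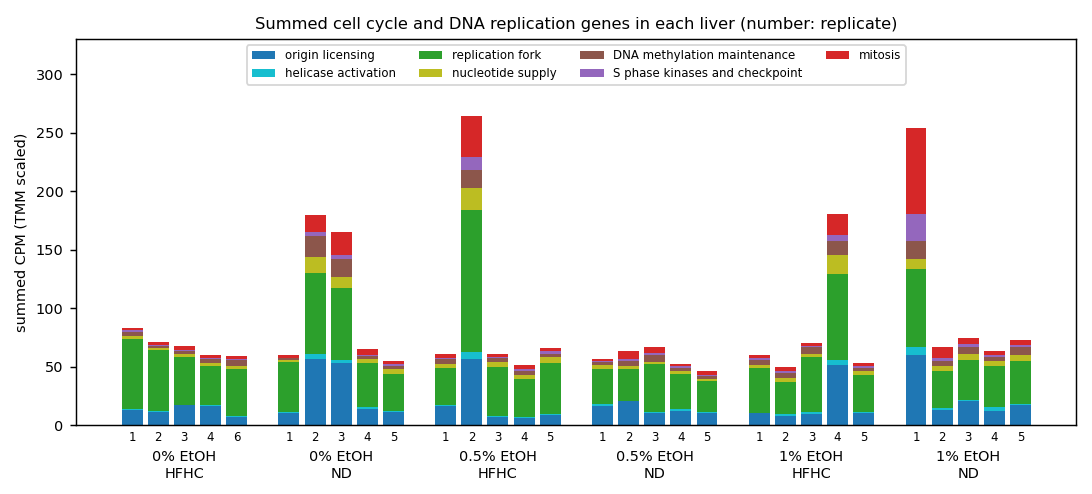
Summed CPM of the 44 Ensembl genes in each of the 30 livers, stacked by role, with the replicate number under each bar. In 5 livers the bar reaches 165 to 264 CPM and in the other 25 it stays between 46.0 and 83.3 CPM.

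Many of the 44 genes were high in each of these livers, which were picked by the sum of the same genes. In 0.5% EtOH HFHC replicate 2 and in 1% EtOH ND replicate 1, 37 of 44 genes exceeded every one of the 25 other livers. The count was 30 in 0% EtOH ND replicate 2, 29 in 0% EtOH ND replicate 3 and 28 in 1% EtOH HFHC replicate 4. The share of all genes that did so in these livers was not computed, so the counts only describe the livers and show nothing particular to the module. The balance of mitosis over licensing differed among them. In 1% EtOH ND replicate 1 the mitotic genes summed to 73.6 CPM and the licensing genes to 60.1 CPM, a ratio of 1.22. The ratio was 0.625 in 0.5% EtOH HFHC replicate 2, 0.359 in 1% EtOH HFHC replicate 4, 0.358 in 0% EtOH ND replicate 3 and 0.266 in 0% EtOH ND replicate 2.

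Markers of other tissues were high in 4 of the 5. vil1, a gene of intestinal brush border, had 457 CPM in 0% EtOH ND replicate 2, 1184 CPM in 0% EtOH ND replicate 3 and 317 CPM in 0.5% EtOH HFHC replicate 2. In the same 2 ND livers the 14 summed hepatocyte genes were below the range of all others, at 137270.0 and 68527 CPM, against 166870.0 to 330520.0 CPM, and leukocyte genes summed to 306 and 253 CPM. 1% EtOH ND replicate 1 had 0 counts of vil1 but 232 CPM of the summed testis list, against at most 12.3 CPM in any other liver, with 61.8 CPM of the Leydig cell gene insl3. The ovary and oocyte list was high there too, at 98.4 CPM against at most 9.88 CPM in any other liver. That list holds piwil1, a gene of germ cells, which had 53.7 CPM.

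The relation was not one to one. vil1 was also at 149 CPM in 0% EtOH ND replicate 1, at 328 CPM in 1% EtOH ND replicate 3 and at 405 CPM in 1% EtOH ND replicate 5, where the members summed to 60.3, 74.8 and 72.5 CPM. In 1% EtOH HFHC replicate 4, with a sum of 181 CPM, vil1 was at 0.457 CPM, the testis list at 1.19 CPM, the leukocyte list at 107 CPM and the hepatocyte genes at 258400.0 CPM, where vil1, testis and leukocyte values were not above the highest of the 25 other livers. The part of other tissues in the members' values was not tested beyond leaving livers out. For that, a set of 23 livers was chosen after the data were seen. It drops the 7 with vil1 over 100 CPM or insl3 over 10 CPM, which leaves 2 livers in 0% EtOH ND, 2 in 1% EtOH ND and 4 in 0.5% EtOH HFHC. Among the 7 are high livers, namely 0% EtOH ND replicates 2 and 3, 0.5% EtOH HFHC replicate 2 and 1% EtOH ND replicate 1. As these are left out, a loss of calls in the 23 cannot show the part of other tissues. The genes tested in the diet fits also differ. In the 23, aurkb, ccna2, cdc6, cdk1, cdt1, orc1, orc6 and tyms no longer pass the filter, while ccnb1 and mcm10 do.

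**Figure D4:**
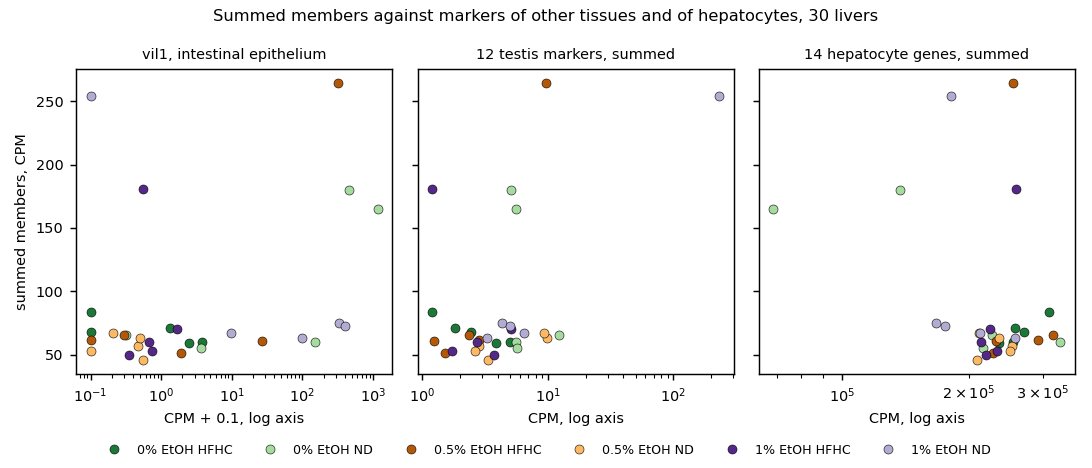
Summed CPM of the members (vertical) against vil1 (CPM + 0.1), the summed testis list and the summed hepatocyte genes (all horizontal axes log) in each of the 30 livers, coloured by group. The highest sum of 264 CPM has 317 CPM of vil1, the next of 254 CPM has 232 CPM of testis genes, and the liver at 181 CPM has neither.

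The HFHC diet in 0% EtOH livers gave negative log2 fold changes for 30 of 31 members, with a median of -1.54 beside -0.04 for all genes. Of these 2 passed, mcm4 and pcna, beside 10.9% of all genes called in either direction and 8.44% called lower. In edgeR the share called was thus not above that of the table. The filter ran over all 30 livers, so members can pass it through a few livers where they are high. The direction count and median partly follow from such livers. With only the groups compared, 12 of 13 members tested were negative, with a median of -0.95. None of the 13 was called, beside 119 of all 12303 genes. mcm4 (chr24:35648541-35673592) had 0.240, 0.175, 0.538, 0.722 and 0.459 CPM in HFHC livers, against 0.339, 7.68, 7.69, 2.75 and 0.745 CPM in ND livers. The groups overlapped, and ND replicates 2 and 3 carried the difference, which was -3.15 ± 0.92 (edgeR adjusted p = 0.0273).

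pcna had 4.08, 2.79, 4.30, 3.79 and 3.31 CPM in 0% EtOH HFHC livers, against 8.30, 21.6, 23.3, 6.04 and 4.15 CPM in 0% EtOH ND livers. The lowest ND liver lay among the HFHC livers. The log2 fold change was -1.81 ± 0.59 (edgeR adjusted p = 0.0492). In the 23 livers it was -0.47 ± 0.47 for pcna and -1.98 ± 0.82 for mcm4, neither called.

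The other reference genes did not pass. mki67 had 0.719, 0.611, 1.61, 0.812 and 0.643 CPM in 0% EtOH HFHC livers, against 0.169, 5.54, 8.37, 1.21 and 0.958 CPM in ND livers, a log2 fold change of -1.91 ± 0.98 (edgeR adjusted p = 0.224). The ND group held both the lowest and the highest livers. The log2 fold changes were -2.55 ± 1.18 for cdk1 (edgeR adjusted p = 0.170), -1.54 ± 0.78 for mcm5 (edgeR adjusted p = 0.215) and -1.55 ± 1.07 for top2a (edgeR adjusted p = 0.390). Only the S phase cyclin gene ccna2 had all HFHC livers below all ND livers, 1 of 31 (3.23%), beside 2.42% of all genes.

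This comparison turned on few livers. No member passed without 0% EtOH ND replicate 2 or replicate 3, nor without 0% EtOH HFHC replicate 1, 2 or 3, while 1 passed without HFHC replicate 6, 4 without ND replicate 4, 5 without ND replicate 1 and 7 without ND replicate 5. In the 23 livers 0 of 25 were called, 16 negative and 9 positive, with a median of -0.28 and 1 unadjusted p under 0.05. In all 30 livers the pancreatic list fell for 11 of 11 genes, the intestinal list for 6 of 11 and the muscle list for 5 of 6, and their part was not tested. DESeq2 called 7 of 30 members, 6 lower and 1 higher, beside 2012 of all 14225 genes.

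In 0.5% EtOH livers the HFHC diet gave positive log2 fold changes for 29 of 31 members, with a median of 1.23 beside 0.02 for all genes, and none passed. edgeR found 4 with an unadjusted p under 0.05, beside 13.6% of all genes, DESeq2 called 0, and 0.0703% of all genes were called by the adjusted p. With only the groups compared, 12 of 13 members tested were positive, with a median of 0.73. pcna had 4.13, 39.5, 4.24, 6.06 and 5.13 CPM in HFHC livers, against 4.82, 4.33, 5.42, 4.63 and 4.76 CPM in ND livers. A single liver, HFHC replicate 2, stood above the rest, and the log2 fold change was 1.30 ± 0.58 (edgeR adjusted p = 0.315).

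The same liver was the high one for mki67, which had 0.504, 8.69, 0.332, 0.957 and 0.493 CPM in HFHC livers, against 0.455, 0.705, 0.956, 0 and 0.529 CPM in ND livers, at 2.04 ± 1.03 (edgeR adjusted p = 0.385). The values were 2.07 ± 1.03 for cdk1 (edgeR adjusted p = 0.378), 1.45 ± 1.02 for top2a (edgeR adjusted p = 0.569) and -0.81 ± 0.75 for mcm5 (edgeR adjusted p = 0.691). Without 0.5% EtOH HFHC replicate 2 the median over the members was 0.04, and in the 23 livers it was 0.03, with 13 positive and 12 negative. rrm1 was the 1 gene of 31 (3.23%) with every HFHC liver above every ND liver, beside 1.42% of all genes. It had 3.53, 9.50, 3.08, 2.87 and 4.34 CPM in HFHC livers, against 2.73, 1.81, 1.70, 1.93 and 1.51 CPM in ND livers, at 1.26 ± 0.45 (edgeR adjusted p = 0.212).

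In 1% EtOH livers the diet effect was negative for 26 of 31 members, with a median of -0.47, and none passed, beside 0.738% of all genes. edgeR found 4 with an unadjusted p under 0.05, beside 14.4% of all genes, and DESeq2 called 0. With only the groups compared, 16 of 19 members tested were negative, with a median of -0.56. pcna had 4.51, 6.15, 3.12, 19.4 and 3.79 CPM in 1% EtOH HFHC livers, against 14.6, 6.62, 9.61, 5.72 and 8.63 CPM in 1% EtOH ND livers. Both groups held a high liver, the groups overlapped, and the log2 fold change was -0.29 ± 0.57 (edgeR adjusted p = 0.890). In these livers the pancreatic list was called lower for 11 of 11 genes and 1 intestinal gene was called, and their part was not tested. Without 1% EtOH HFHC replicate 4 the median was -1.69, and in the 23 livers it was 0.13, with 15 positive and 10 negative.

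**Figure D5:**
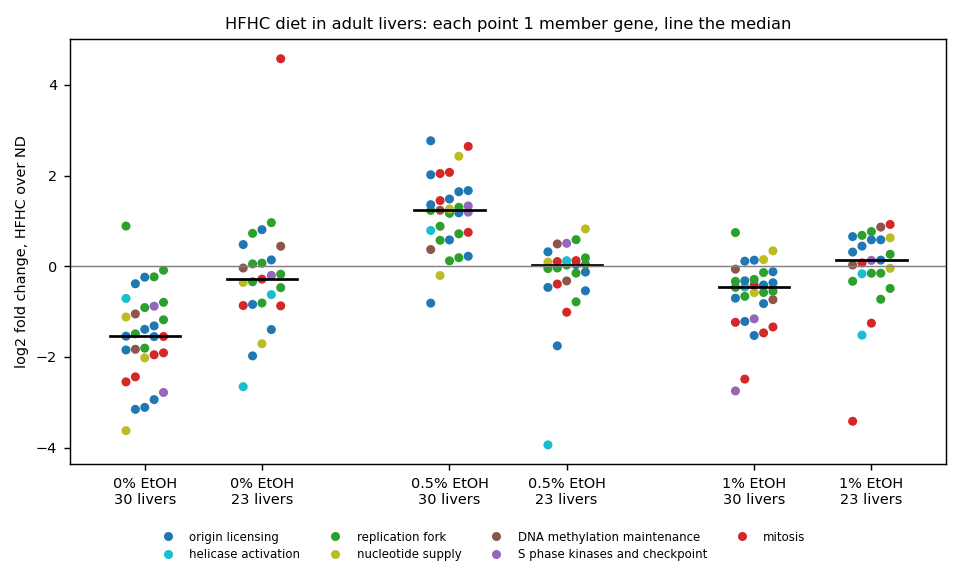
Log2 fold change of HFHC over ND for each member in 0%, 0.5% and 1% EtOH livers, in all 30 livers and in the 23 livers without high vil1 or insl3, with a line at the median. The medians are -1.54, 1.23 and -0.47 over 31 members in the 30 livers and -0.28, 0.03 and 0.13 over 25 members in the 23. The 31 and the 25 are not all the same genes, so the medians are not over like sets.

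The difference between the diet effects of 0.5% and 0% EtOH livers was positive for 30 of 31 members, with 6 called, beside 7.75% of all genes called in either direction and 6.81% positive. Here too members can pass the filter through a few high livers, which partly sets the direction count. With only the groups compared, 19 of 20 members tested were positive, with a median of 2.09. Of the 20, 3 were called, beside 546 of all 13393 genes. The difference uses the same 0% EtOH livers as the diet comparison above, so the 2 are not separate evidence. The 6 were rrm1 at 2.38 ± 0.63 (edgeR adjusted p = 0.0192), mcm4 at 4.82 ± 1.28 (0.0193), pcna at 3.11 ± 0.83 (0.0207), tyms at 6.05 ± 1.69 (0.0254), mcm3 at 4.96 ± 1.49 (0.0394) and uhrf1 at 3.06 ± 0.96 (0.0475). tyms had 0.101, 4.39, 0.582, 0.160 and 0.690 CPM in 0.5% EtOH HFHC livers, against 0, 0.605, 0.319, 0.0965 and 0.0756 CPM in 0.5% EtOH ND livers. In 0% EtOH livers it had 0.120, 0, 0, 0.0903 and 0.184 CPM on HFHC diet, against 0, 2.51, 1.92, 0.549 and 0.106 CPM on ND. tyms had under 3 counts in 15 of the 30 livers, so the size of its difference rests on values near the floor.

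The livers that carry the difference are 0.5% EtOH HFHC replicate 2 and 0% EtOH ND replicates 2 and 3, all with high vil1. 0% EtOH ND replicate 1 also had vil1 over 100 CPM, with a low sum of the members. No member passed without 0.5% EtOH HFHC replicate 2 or without 0% EtOH ND replicate 3, and 1 passed without 0% EtOH ND replicate 2. The 23 livers leave out all of these livers. There 0 of 25 passed, with 14 positive, 11 negative and a median of 0.22 beside 2.70 in all 30, and 1 unadjusted p under 0.05. The other reference genes were at 4.62 ± 1.57 for cdk1 (edgeR adjusted p = 0.0683), 3.95 ± 1.42 for mki67 (0.0897), 3.00 ± 1.48 for top2a (0.236) and 0.73 ± 1.07 for mcm5 (0.751). The pancreatic list was called positive for 11 of 11 genes, the intestinal list for 6 of 11 and the muscle list for 4 of 6, and their part was not tested.

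Lists beside the module were counted in this difference too, where edgeR called 7.75% of all genes in either direction. Of 34 other replication genes 4 were called, with the histone chaperone gene asf1ba at -1.11 ± 0.30 and rpa2, of the single-strand binding complex, at 1.92 ± 0.54. Of 26 other mitosis genes 1 was called, the condensin gene smc2 at 5.21 ± 1.61. DESeq2 called 5 of these 26, all higher, and 4 higher and 1 lower of the 34, beside 1514 of all 14225 genes. Among 21 regulators the transcription factor gene mybl2b stood at 6.56 ± 1.71 and lin54, of the same complex, at -0.80 ± 0.24. Among 16 brakes and stress response genes, cdkn1ba, a CDK inhibitor gene, was at 1.499 ± 0.41. The difference between 1% and 0% EtOH livers called 0 of 31 members in edgeR, where 0 of all 14225 genes were called. Of the members 2 had an unadjusted p under 0.05, beside 5.39% of all genes, and DESeq2 called 0 members.

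EtOH compared within a diet gave no call among the members at either dose in edgeR. For 0.5% EtOH over 0% EtOH on ND, 14 of 15 members tested were negative, with a median of -0.96 and 6 unadjusted p values under 0.05 (13.7% of all genes). There edgeR called 0 of all genes, and DESeq2 called 1 member, beside 498 of all 12227 genes. On HFHC diet 9 of 13 were positive, with a median of 0.79 and 4 unadjusted p values under 0.05 (11.2% of all genes). There edgeR called 0 of all genes, and DESeq2 called 0 members, beside 131 of all 12318 genes. On ND the median was -0.46 without 0% EtOH ND replicate 2, -0.49 without 0% EtOH ND replicate 3 and -0.05 in the 23 livers. On HFHC diet it was -0.03 without 0.5% EtOH HFHC replicate 2, which is the 1 liver that the 23 leave out there. In the ND comparison markers of other tissues were lower too, the unadjusted p being under 0.05 for 11 of 11 pancreatic, 3 of 6 intestinal, 4 of 4 muscle and 4 of 9 leukocyte genes in edgeR, and DESeq2 called 11 pancreatic, 3 intestinal, 3 muscle and 2 leukocyte genes lower. On HFHC diet 8 of 11 pancreatic genes were higher by the unadjusted p. The part of these tissues was not tested.

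For 1% EtOH over 0% EtOH on ND, 12 of 21 members were negative, with a median of -0.08, 0 unadjusted p values under 0.05 (4.32% of all genes) and 0 calls in DESeq2, beside 0.0154% of all genes called. On HFHC diet 9 of 12 were positive, with a median of 0.33, 1 unadjusted p under 0.05 (9.42% of all genes) and 0 calls in DESeq2, beside 0.00813% of all genes called. These medians turned on single livers. On ND the median was -0.68 without 1% EtOH ND replicate 1, with 19 of 21 negative, 0.19 without 0% EtOH ND replicate 2, 0.16 without 0% EtOH ND replicate 3 and 0.28 in the 23 livers, and it was also positive without 1% EtOH ND replicate 2, 4 or 5. On HFHC diet it was -0.16 without 1% EtOH HFHC replicate 4, with 5 positive and 7 negative, and the 23 livers leave out none of the livers compared there. All of these comparisons share the 0% EtOH livers with the diet comparison above.

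A few members did not follow the rest. rfc3, a clamp loader subunit (chr10:34080393-34089605), had 109 to 426 counts in every liver and was the member with the most CPM in most of them, a comparison not corrected for length. It had 41.5, 37.2, 25.4, 17.3 and 24.9 CPM in 0% EtOH HFHC livers, against 19.0, 17.3, 7.48, 20.9 and 14.7 CPM in 0% EtOH ND livers, and it was the 1 member with a positive log2 fold change there, at 0.89 ± 0.30 (edgeR adjusted p = 0.0578). The ND liver with the most vil1 had the least rfc3. At 0.5% and 1% EtOH the log2 fold change of HFHC over ND was 0.72 ± 0.30 and 0.74 ± 0.30, neither called.

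mcm2 and mcm5 had high counts in some livers where mcm3 was low. mcm2 had 54, 54, 50, 77 and 3 counts in 0% EtOH HFHC livers, where mcm3 had 0 to 8 counts. mcm5 had 128 counts in 0.5% EtOH ND replicate 1, its highest value in CPM of all 30 livers, where mcm3 had 2. The chromosome 20 copy of rrm2 had 60 counts in 0.5% EtOH HFHC replicate 2 and at most 16 in any other liver. rfc3, mcm2 and rrm2 were picked out here after their values were seen.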

How the data were processed

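Whole larvae (12 pools) and adult livers (30) were profiled by RNA-Seq. For larvae the authors deposited read counts and TPM of 25935 genes, from reads aligned to GRCz10 with STAR; the program that counted larval reads is not given in the sources used here. For livers the authors deposited htseq-count (HTSeq 0.6.0) counts of Ensembl genes in 4 tables. Whether the counting used strand is not given in the sources used here. Those tables also hold the authors' DESeq2 log2 fold changes and p-values and 40 size-factor columns, which were not used.

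Counts were tested with edgeR 4.0.16 in R 4.3.3 (TMM, filterByExpr, robust quasi-likelihood), with a Benjamini-Hochberg adjusted p under 0.05 over all genes tested. Larvae were fitted together, EtOH comparisons in livers as 10 livers, and liver diet comparisons and interactions as 30 livers. Standard errors are the log2 fold change over the square root of F, 95% intervals use the t quantile at the degrees of freedom of the fit, and fitted fold changes use a prior count of 0.125. Alternatives were DESeq2 1.42.0, limma 3.58.1 on log2(TPM + 1), RLE scaling, other filters (none, or at least 10 counts in every sample), only the groups compared, a replicate block, and leaving out samples. A non-robust dispersion and the 23 livers were added after seeing the data. The fits were tested on simulated data with known changes.

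The members and lists were chosen with earlier results of these data known. Named in full were up to 4 called members a direction with the smallest p, and mki67, pcna, mcm5, top2a and cdk1 as reference genes. A gene that is no member was named if among the 2 smallest p of its list, except 1 that is not reported here. No labels say that samples came from separate clutches, so p-values measure the spread between these samples. Floors cover counting error only. No pair of libraries agreed within sampling noise.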

Additional observations from a re-analysis of the deposited data

Results flagged for a closer look

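In groups of 5 livers, the highest or lowest liver was compared with its nearest neighbour by Dixon's test for a sample that stands apart. Of 48 sets of 5 tested, 21 had such a liver. Chance gives about 1 in 20 for normally distributed values, which these CPM, many on low counts, were not shown to be. The genes share the same livers and are not separate tests. Livers already picked above by their sum are marked again here, so the marks are a description.

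0.5% EtOH HFHC replicate 2 stood apart at 264 CPM summed over the members, 39.5 CPM of pcna, 8.69 CPM of mki67, 8.33 CPM of mcm5, 9.77 CPM of top2a and 3.76 CPM of cdk1. 1% EtOH HFHC replicate 4 stood apart at 181 CPM summed, 19.4 CPM of pcna, 4.85 CPM of mki67, 7.41 CPM of mcm5, 7.596 CPM of top2a, 2.01 CPM of cdk1 and 11.3 CPM of mcm2. 1% EtOH ND replicate 1 stood apart at 254 CPM summed, 13.2 CPM of mki67, 9.70 CPM of mcm5, 21.4 CPM of top2a, 5.77 CPM of cdk1 and 8.53 CPM of mcm2. Among 0% EtOH HFHC livers, replicate 3 stood apart for mki67 at 1.61 CPM and replicate 2 for cdk1 at 0.349 CPM, the last on 4 counts. In 0% EtOH ND livers replicates 2 and 3 were both high, and neither was marked.

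The diet effect differed between 0.5% and 0% EtOH livers for 6 members by the interaction term in edgeR, with log2 differences of 2.38 for rrm1, 4.82 for mcm4, 3.11 for pcna, 6.05 for tyms, 4.96 for mcm3 and 3.06 for uhrf1. None was called in the 23 livers without high vil1 or insl3, where rrm1 was at 1.18, mcm4 at 2.29, pcna at 0.50, mcm3 at 1.43 and uhrf1 at 0.53, and tyms did not pass the filter. The 23 leave out the livers that carry the difference, 0.5% EtOH HFHC replicate 2 and 0% EtOH ND replicates 2 and 3. The loss of the calls therefore cannot show the part of other tissues.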

How the results depend on the processing

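The count of members called kept within 1.5 times of its value under most settings. Most comparisons had 0 calls in the main fit, however, where a count that stays at 0 says little. Apart from the fits without 1 sample, counts above 0 left that range more often in livers than in larvae. Without 1 sample, the diet count kept within it in 3 of 6 fits in control larvae and 2 of 6 in EAE larvae. For livers it did so in 1 of 10 fits for the diet at 0% EtOH and 17 of 20 for the 0.5% EtOH by diet difference. With limma on TPM the count was 4 in control and 3 in EAE larvae for the diet. For the diet in 0% EtOH livers it was 7 with DESeq2, beside 2012 of all 14225 genes. There it was 1 with no filter or with at least 10 counts in every sample. It was 0 with only the groups compared, with the replicate block or in the 23 livers. For the 0.5% EtOH by diet difference it was 11 with DESeq2, beside 1514 of all 14225 genes. There it was 2 with at least 10 counts in every sample and 3 with only the groups compared. It was 0 with the replicate block or in the 23 livers. DESeq2 gave 1 for 0.5% EtOH on ND, beside 498 of all 12227 genes. Leaving out 1 sample gave 3 to 8 calls for the diet in control larvae, 1 to 5 in EAE larvae, 0 to 7 in 0% EtOH livers, 0 to 8 for the 0.5% EtOH by diet difference and 0 to 0 elsewhere. The causes were not tested.

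Some reference genes changed sign, near 0 in larvae and further from 0 in livers. For EAE on ND in larvae mcm5 was -0.00116 with DESeq2, -0.00117 with RLE and -0.015 to 0.026 without 1 sample, and cdk1 was -0.075 to 0.098 without 1 sample. For EAE on HFHC diet top2a was -0.00269 with DESeq2, -0.00273 with RLE, -0.00332 with at least 10 counts, -0.00322 with limma and -0.042 to 0.029 without 1 sample, and mki67 was 0.00281 with no filter, 0.000215 with the block and -0.044 to 0.030 without 1 sample. For the diet in control larvae mki67 was -0.049 to 0.069 and top2a -0.041 to 0.10 without 1 sample. In the 23 livers the diet log2 fold change of mcm5 at 0% EtOH was 0.14, beside -1.89 to -1.11 without 1 liver. That of top2a at 0.5% EtOH was -0.39 in the 23, beside 1.45 in the 30. The 0.5% EtOH difference of mcm5 was -1.89 in the 23, beside 0.73 in the 30. Without 1 liver top2a at 0.5% EtOH was -0.39 to 1.88 and the difference of mcm5 was -0.21 to 1.29.

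Whether shared replicate numbers pair the samples is not known. The paper describes the livers as taken from family-matched cohorts, and low correlations cannot exclude a pairing. Deviations of same-numbered samples correlated above 0.1 in 0 of 12 larval pairs (-0.0882 to 0.0546) and 3 of 32 liver pairs (-0.557 to 0.572). With the replicate block the larval diet calls were 7 in controls and 4 in EAE larvae. In livers the block left 0 calls for the diet at 0% EtOH and 0 for the 0.5% EtOH by diet difference.

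Of the 44 Ensembl genes, 31 had a median under 10 counts over the 30 livers, which limits the precision of the liver values.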
